A study of Rattus norvegicus with 6 samples.

Results

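The genes described here were 8 core members of the PI3K, Akt and mTOR pathway, namely Pik3ca, Pik3cd, Pik3r1, Akt1, Akt2, Mtor, Rptor and Rictor. They were measured in sciatic nerve of control rats and of other rats after a crush injury. They were taken by gene name, as 8 of the 30957 genes in the mRNA table, and all 8 were among the 15195 genes with enough counts to be tested. The nerves came from 1-month-old Sprague-Dawley rats in 3 groups of 2 animals each. The control group carried no crush. Its samples are labelled normal control, and the methods of the study state that these rats had the same surgery without the clamp. In the D4 and D7 groups the left sciatic nerve had been clamped with forceps and was taken 4 or 7 days later. The crushed animals had been operated under chloral hydrate, no transgene or mutant allele is given in the labels, and each library came from 1 rat, so that the spread given below is that between 2 animals.

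Class I PI3K enzymes are pairs of a catalytic subunit, which phosphorylates a membrane lipid downstream of growth factor receptors, and a regulatory subunit, which holds and stabilises the catalytic one. The lipid recruits the kinases of the Akt family, and Akt in turn relieves the brake that the TSC proteins place on mTOR. The mTOR kinase works in one complex marked by Raptor, which drives protein synthesis, and in another marked by Rictor, which phosphorylates Akt. In Schwann cells, the glia that wrap axons of peripheral nerve, this pathway is known for its part in myelin growth and in the response to injury.

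Total mRNA counts ranged from 18727255 to 25350886 per library, and the 2 libraries of each group differed by more than sampling noise. The tissue carried nerve markers in control libraries, where the summed level of 5 myelin genes (Mbp, Pmp22, Prx, Mag and Egr2) was 39989 and 26298 counts normalised by library size (CPM). That sum was 1086 and 1112 CPM at D4 and 5574 and 3472 CPM at D7. The summed level of 8 leukocyte and macrophage genes was 214 to 246 CPM in control, 773 to 823 CPM at D4 and 538 to 677 CPM at D7. All CPM values here were scaled by a trimmed mean of M values (TMM) between libraries. In such whole-nerve RNA, fewer cells of a type and less RNA per cell cannot be told apart.

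Levels can be set side by side between genes only per transcript length, as FPKM, fragments per length of transcript and size of library. In control nerve the order of mean FPKM was Pik3r1 at 130 ± 13.1, Akt2 at 68.0 ± 4.03, Akt1 at 58.9 ± 2.37, Pik3ca at 17.9 ± 0.716, Mtor at 14.3 ± 1.15, Rictor at 14.1 ± 0.840, Rptor at 9.90 ± 1.16 and Pik3cd at 2.37 ± 0.0174 (SD, n = 2 for each). Among neighbours in that order, only Mtor and Rictor had library values that overlapped. At D4 the order opened with Akt1 at 123 ± 1.09 FPKM, followed by Pik3r1 at 53.4 ± 5.22 and Akt2 at 49.0 ± 2.94, whose libraries overlapped. Mtor (19.8 ± 0.195), Pik3ca (17.3 ± 0.145) and Pik3cd (13.3 ± 0.442) came next at D4, and the Pik3cd libraries overlapped those of Rictor (12.5 ± 0.920), which overlapped those of Rptor (12.0 ± 0.370). At D7 Akt1 (101 ± 1.77 FPKM) stood above Pik3r1 (91.7 ± 7.26) and Akt2 (51.4 ± 4.81) without overlap. Mtor (19.7 ± 0.387) and Pik3ca (18.9 ± 0.954) overlapped at D7, Rictor was 15.5 ± 0.342, and Pik3cd (11.2 ± 1.57) was last, overlapping Rptor (11.8 ± 0.107). Thus the most abundant member was the regulatory subunit Pik3r1 in control nerve and the kinase Akt1 in both crushed groups.

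**Figure D1:**
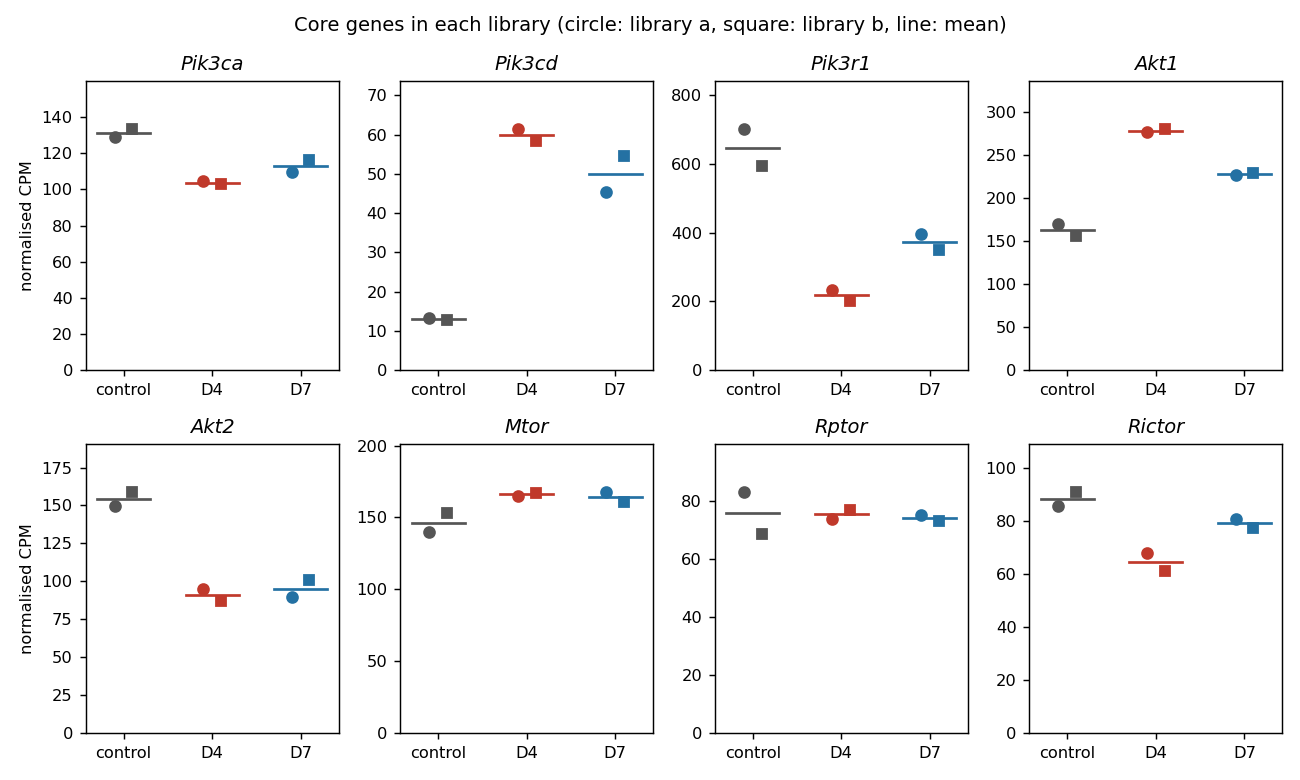
TMM-scaled CPM of the 8 core genes in each of the 6 libraries, 1 panel a gene with its own axis from 0, with the 3 groups on the horizontal axis, circles for library a, squares for library b and a line at the group mean. Pik3cd, Akt1 and Mtor stand above control in every crushed library, Pik3r1, Akt2, Pik3ca and Rictor stand below it, and the Rptor groups overlap. The Mtor differences did not pass the test.

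The comparison of D4 and D7 with control asks how the transcripts of these enzymes stood during early degeneration and regrowth of the nerve. Both comparisons share the same 2 control libraries. At D4, 6 of the 8 genes had an adjusted p under 0.05, of which 2 were higher (Pik3cd, Akt1) and 4 lower (Pik3r1, Akt2, Rictor, Pik3ca), in a comparison where 44.2% of all tested genes passed (21.6% higher and 22.6% lower). At D7, 4 of the 8 passed, with Pik3cd and Akt1 higher and Pik3r1 and Akt2 lower, where 37.5% of all tested genes passed (19.5% higher and 18.1% lower). With a change of at least 2-fold also required, as for the differentially expressed genes (DEGs) of the study, 2 members were called at D4 (Pik3cd and Pik3r1; 21.9% of all genes) and 1 at D7 (Pik3cd; 18.8% of all genes). The median log2 fold change of the 8 members was -0.17 at D4 and -0.10 at D7, beside -0.04 and 0.01 for all tested genes. The libraries of crushed and control nerve did not overlap for 7 of the 8 members at D4, as for 76.2% of all genes, and for 7 of 8 at D7, as for 71.9% of all genes.

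**Figure D2:**
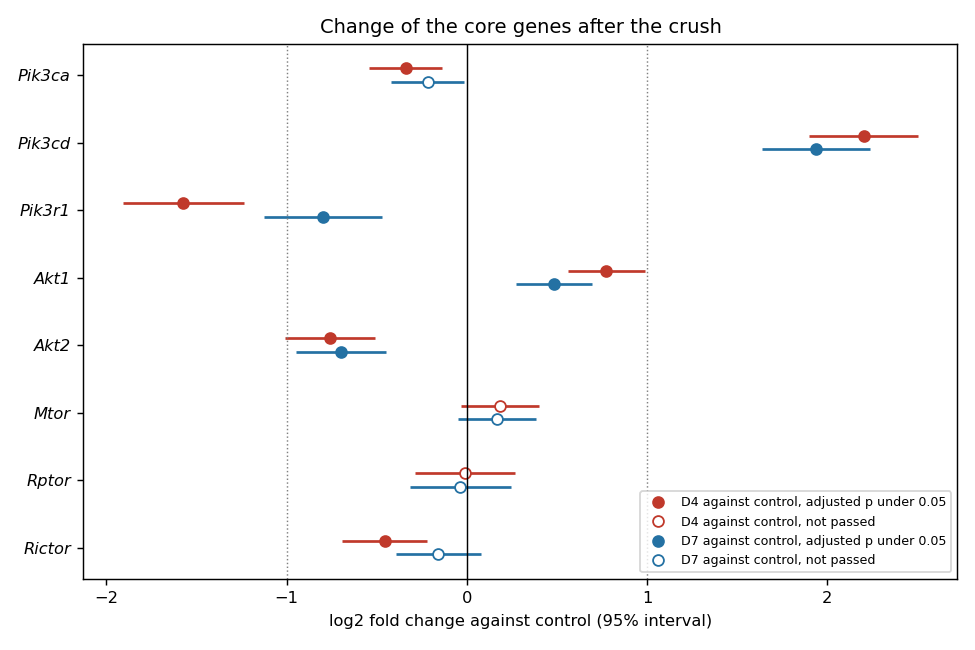
Log2 fold change of each core gene at D4 (red) and D7 (blue) against control, with bars for the 95% interval, filled points for an adjusted p under 0.05, a solid line at 0 and dotted lines at a 2-fold change. Pik3cd lies beyond the upper 2-fold line at both times and Pik3r1 beyond the lower one at D4. The intervals of Mtor and Rptor span 0 at both times, and that of Rictor does so at D7.

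Among the catalytic subunits, Pik3cd (ENSRNOG00000016846, chr5:166602053-166628028, Rnor_6.0), which encodes p110delta, a form best known from leukocytes, had the greatest change of the 8. Its counts were 257 and 212 in control, 1495 and 1582 at D4, and 966 and 1103 at D7. On the CPM scale these were 13.2 and 12.8 in control, 61.4 and 58.4 at D4, and 45.4 and 54.6 at D7. Every crushed library thus lay above both controls, by a group ratio of 4.60-fold at D4 (log2 fold change 2.20, SE 0.123, adjusted p = 0.000160) and 3.84-fold at D7 (1.94, SE 0.123, adjusted p = 0.000373). The leukocyte and macrophage markers moved with it. At D4 all 8 passed as higher, by 1.45 to 2.92 on the log2 scale, where 21.6% of all genes passed as higher. At D7 all 8 were higher and 7 of them passed, where 19.5% of all genes did. Cd14 did not pass at D7 (0.77, adjusted p = 0.0945). Per 1000 CPM of those summed markers, Pik3cd stood at 53.8 and 59.7 CPM in control, 74.5 and 75.6 at D4, and 84.4 and 80.6 at D7. The part of leukocyte number in the Pik3cd level was not tested. Lymphocyte markers were scarce, with a sum of 1.24 and 1.57 CPM in control, 0.821 and 0.924 at D4, and 3.01 and 4.30 at D7. On few counts, Cd3e passed as higher at D4 (log2 fold change 1.77) and D7 (3.49). Cd3g passed as lower at D4 (-2.59) and did not pass at D7 (0.22). The third marker, Cd79b, was too low to be tested.

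Pik3ca (ENSRNOG00000056371, chr2:118831350-118861454), which encodes p110alpha, the catalytic subunit most used by growth factor receptors, was 129 and 133 CPM in control, 104 and 103 at D4, and 110 and 116 at D7. It fell at D4 by 0.34 on the log2 scale (SE 0.083, adjusted p = 0.0192). At D7 the log2 difference was -0.22 and did not pass (adjusted p = 0.0849). The call at D4 was lost when control b, D4 a or D4 b was left out (adjusted p from 0.0613 to 0.121) and when libraries were not scaled (-0.05, adjusted p = 0.649).

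Because a ratio of counts within 1 library does not depend on scaling between libraries, Pik3cd was also set against Pik3ca. Pik3cd had 0.103 and 0.0959 counts per count of Pik3ca in control, 0.588 and 0.567 at D4, and 0.414 and 0.471 at D7. The mean log2 ratio was 2.54 higher at D4 and 2.15 higher at D7 than in control, without overlap. An exact two-sided permutation test gave p = 0.333 for each, the smallest that 2 libraries against 2 allow.

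Pik3r1 (ENSRNOG00000018903, chr2:31745088-31826867), which encodes the regulatory subunit p85alpha and its shorter forms, moved the other way. Its counts were 13597 and 9826 in control, 5666 and 5471 at D4, and 8424 and 7045 at D7. Scaled to CPM these were 700.3 and 592 in control, 233 and 202 at D4, and 396 and 349 at D7. The 3 groups did not overlap, and D7 lay between the others. Pik3r1 was 2.97-fold lower at D4 (log2 fold change -1.57, SE 0.137, adjusted p = 0.000466) and 1.74-fold lower at D7 (-0.80, SE 0.135, adjusted p = 0.00644). The 5 myelin markers were lower at the same times. All 5 passed at D4, where 22.6% of all genes passed as lower. At D7, where 18.1% did, 3 of the 5 passed. The others, Egr2 (-1.34, adjusted p = 0.0562) and Mag (-0.80, adjusted p = 0.0748), were lower without passing. The 4 adipocyte markers (Adipoq, Plin1, Fabp4 and Lep) summed to 1146 and 972 CPM in control, 264 and 132 at D4, and 6.62 and 387 at D7, although none passed the test. Of 2 endothelial markers in the table, Kdr passed as lower at D4 (-1.28) and Cdh5 did not pass (-0.54, adjusted p = 0.0662). Both passed as lower at D7 (Kdr -1.52, Cdh5 -1.12). Their sum was 336 and 355 CPM in control, 214 and 167 at D4, and 110 and 169 at D7. Among 3 fibroblast markers, Col1a1 (-0.66 at D4 and -1.05 at D7) and Dcn (-0.56 and -0.59) were lower, and Pdgfra higher (0.68 and 0.49). The part of these cell types in the Pik3r1 level was not tested.

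RefSeq windows of 250 bases before a transcript start (GRCr8) were found for 7 of the 8 genes, but only those of Pik3r1, Mtor and Rictor lay at the outer start of the annotated gene. The windows of Pik3r1 (chr2:34697661-34697910, minus strand), the member with the deepest fall, and of Mtor (chr5:164167735-164167984, plus strand), one whose change did not pass, are shown for comparison, with GC boxes (GGGCGG, or CCGCCC on the other strand) in capitals.
Pik3r1: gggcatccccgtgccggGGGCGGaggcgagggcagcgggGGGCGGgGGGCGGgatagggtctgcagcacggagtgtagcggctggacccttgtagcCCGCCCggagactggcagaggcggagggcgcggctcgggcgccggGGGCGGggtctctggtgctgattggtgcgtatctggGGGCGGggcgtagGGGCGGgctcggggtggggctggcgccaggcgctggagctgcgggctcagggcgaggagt
Mtor: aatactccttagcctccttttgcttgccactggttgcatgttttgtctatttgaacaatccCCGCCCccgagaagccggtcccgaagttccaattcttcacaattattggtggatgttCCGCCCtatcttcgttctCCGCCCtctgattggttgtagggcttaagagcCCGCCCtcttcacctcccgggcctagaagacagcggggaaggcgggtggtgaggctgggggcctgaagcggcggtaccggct
The Pik3r1 window held 7 GC boxes, and the letters CCAAT, searched on both strands, were found once (1 match). Its GC content was 77.2%. The Mtor window held 4 GC boxes and 3 CCAAT matches, with a GC content of 56.8%. The Rictor window (not printed) held 4 GC boxes and no CCAAT match, with a GC content of 80.4%. Among 33469 rat windows of the same length, 30.5% held a GC box and 34.0% a CCAAT match. Those windows were not limited to the outer start of a gene, so that these shares are not a like background for the 3. The windows of Pik3ca, Pik3cd, Akt1 and Akt2, which did not lie at the outer start, held no GC box. Of these, Pik3cd had 1 CCAAT match and Pik3ca 1 match of the forkhead letters GTAAACA. The windows of Pik3r1, Mtor and Rictor held neither the forkhead letters (3.21% of all windows, both strands) nor the AP-1 letters TGANTCA (6.34%).

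The study looked for long noncoding RNAs (lncRNAs) close to coding genes, so those within 10 kb of a member were counted. There were 13, at 6 of the 8 genes and none at Akt1 or Mtor, and 7 of the 13 had enough counts to be tested. Both that passed lay at the low-coordinate end of Pik3r1, which is its 3′ end given the minus strand that RefSeq lists, and both were lower at D4, where 11.2% of all tested lncRNAs passed. NONRATT016050.2 (chr2:31743289-31745176, 1888 nt) shares 89 bases with the Pik3r1 span, and had 5713 and 4278 counts in control, 2157 and 2048 at D4, and 3350 and 2581 at D7. Its log2 fold change was -1.40 at D4 (SE 0.181, adjusted p = 0.0110) and -0.84 at D7 (adjusted p = 0.0550). NONRATT016049.2 (chr2:31742326-31743234, 909 nt), 1854 bases away from the gene, had 2323 and 1976 counts in control, 849 and 782 at D4, and 1425 and 1073 at D7. Its log2 fold change was -1.55 at D4 (SE 0.185, adjusted p = 0.00888) and -0.88 at D7 (adjusted p = 0.0527). Per 100 counts of Pik3r1, NONRATT016050.2 had 36.6 to 43.5 counts and NONRATT016049.2 had 14.3 to 20.1 counts over the 6 libraries. The sources used here do not say whether counting used the strand, so that reads from an extended Pik3r1 transcript and from these lncRNAs cannot be told apart. With D4 a or D4 b left out, neither lncRNA passed.

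**Figure D3:**
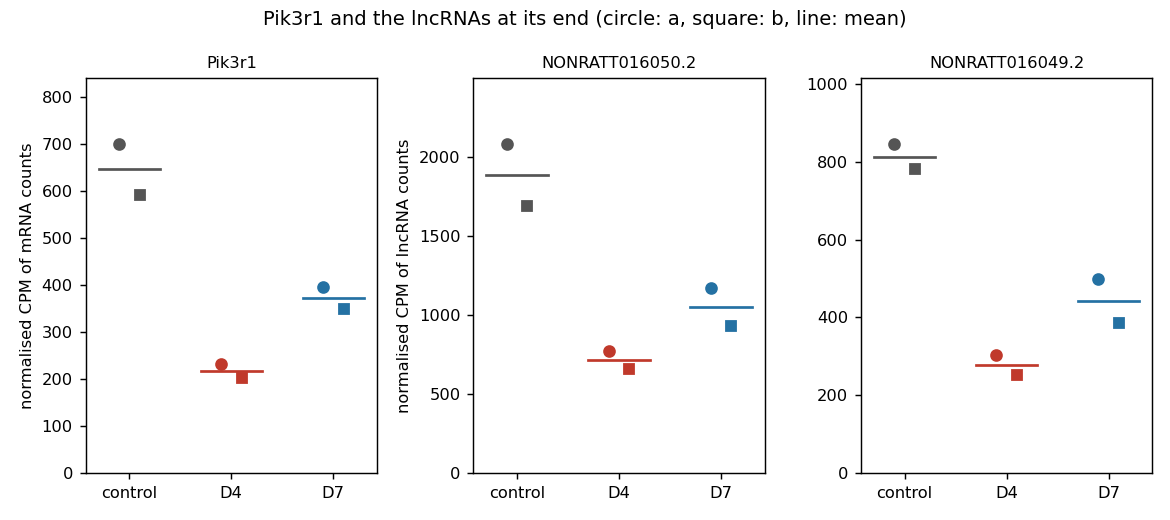
TMM-scaled CPM of Pik3r1 (among mRNA counts) and of the lncRNAs NONRATT016050.2 and NONRATT016049.2 at its end (among lncRNA counts) in each library, with circles for library a, squares for library b and lines at group means. All 3 transcripts are highest in control, lowest at D4 and in between at D7, without overlap of the groups.

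At the other loci the lncRNA with the most counts was NONRATT015070.2 at Rictor (mean 169 counts), NONRATT015206.2 at Pik3ca (39.2), NONRATT000521.2 at Akt2 (16.0) and NONRATT023875.2 at Pik3cd (5.33, not tested). The 3 at Rptor had means of at most 1 count. None of the tested ones passed in any comparison, where 6.25% of all tested lncRNAs passed at D7 and 0.249% between D7 and D4.

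The Akt genes diverged. Akt1 (ENSRNOG00000028629, chr6:137218376-137236258), the widely expressed form tied to growth and survival, was 170 and 156 CPM in control, 277 and 280.3 at D4, and 227 and 229 at D7. All 4 crushed libraries stood above both controls, with a 1.71-fold increase at D4 (log2 fold change 0.77, SE 0.0877, adjusted p = 0.00116) and a 1.40-fold increase at D7 (0.48, SE 0.0874, adjusted p = 0.00811). Akt2 (ENSRNOG00000018677, chr1:84411726-84450162), the form tied to insulin action, was 149.8 and 159 CPM in control, 95.1 and 87.1 at D4, and 89.4 and 101 at D7. It was 1.69-fold lower at D4 (-0.76, SE 0.102, adjusted p = 0.00214) and 1.62-fold lower at D7 (-0.70, SE 0.102, adjusted p = 0.00384). Akt1 had 1.13 and 0.984 counts per count of Akt2 in control, 2.92 and 3.22 at D4, and 2.54 and 2.28 at D7. The mean log2 ratio was 1.54 higher at D4 and 1.19 higher at D7 than in control, without overlap (exact two-sided permutation p = 0.333 for each, the smallest possible). Markers of several cell states moved at the same times. The 3 proliferation genes (Mki67, Top2a and Ccnb1) were all higher at D4 and D7, with a sum of 29.0 and 62.5 CPM in control, 715 and 842 at D4, and 481 and 515 at D7. The 4 markers of injured Schwann cells (Ngfr, Gdnf, Sox2 and Jun) were also higher at both times, from 124 to 130 CPM in control to 2454 to 2608 at D4 and 1538 to 1610 at D7, and the leukocyte, myelin, endothelial and adipocyte values are given above. Their part in the Akt1 and Akt2 levels was not tested.

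Mtor (ENSRNOG00000009615, chr5:165263800-165373967), the kinase common to both complexes, was 139.7 and 153 CPM in control, 165 and 167 at D4, and 168 and 161 at D7. The log2 difference from control was 0.18 at D4 (95% interval -0.03 to 0.40, adjusted p = 0.137) and 0.17 at D7 (-0.05 to 0.38, adjusted p = 0.181). Rptor (ENSRNOG00000003821, chr10:108750620-109058691), which encodes Raptor, was 83.2 and 68.7 CPM in control, 73.8 and 77.0 at D4, and 75.1 and 73.1 at D7. All crushed libraries lay between its 2 control values, and the log2 differences were -0.01 at D4 (95% interval -0.29 to 0.27, adjusted p = 0.948) and -0.04 at D7 (-0.32 to 0.24, adjusted p = 0.823). Rictor (ENSRNOG00000011341, chr2:56052643-56101803) was 85.8 and 91.0 CPM in control, 67.8 and 61.0 at D4, and 81.0 and 77.4 at D7. It was 1.37-fold lower at D4 (-0.46, SE 0.0972, adjusted p = 0.0118), a call lost without D4 b (-0.38, adjusted p = 0.0911). At D7 its log2 difference was -0.16 (95% interval -0.40 to 0.08, adjusted p = 0.240). There were 0.970 and 0.755 Rptor counts per Rictor count in control, 1.09 and 1.26 at D4, and 0.927 and 0.944 at D7, so that D4 lay above control and D7 within it. The mean log2 ratio was 0.45 higher at D4 (exact two-sided permutation p = 0.333, the smallest possible) and 0.13 higher at D7 (p = 1).

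The small changes depended on scaling. Without TMM factors the median log2 fold change of all genes was 0.25 at D4 and 0.31 at D7 in place of -0.04 and 0.01. On that scale Mtor passed as higher at D4 (0.47, adjusted p = 0.00743) and at D7 (0.46, adjusted p = 0.00887), and Pik3ca and Rictor no longer passed at D4, which made 3 higher and 2 lower members at D4. Pik3cd, Pik3r1, Akt1 and Akt2 passed in the same direction under both scales, and Akt1 reached 1.06 at D4 without the factors, which brought it past 2-fold. The methods of the study describe TMM scaling before FPKM. In the deposited table, however, the FPKM of the 8 members divided by their counts per total count was the same in all 6 libraries (relative value 1.0, where TMM scaling would give 0.799 to 0.811 in the crushed libraries), so that FPKM levels across groups follow the unscaled counts.

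The place of the PI3K members in their families was then read as their share of summed FPKM within a library, a measure chosen after the values above were seen and given without a test. Of the 4 class I catalytic subunits (Pik3ca, Pik3cb, Pik3cd, Pik3cg), Pik3cd made up 8.57% and 8.30% in control, 29.6% and 29.3% at D4, and 24.8% and 27.1% at D7. The share of Pik3ca was 62.6% and 64.9% in control, 37.7% and 38.7% at D4, and 44.9% and 43.1% at D7. Pik3cg, the subunit coupled to G-protein receptors, made up 12.5% and 13.6% in control and 21.0% to 25.8% in the crushed libraries. Of the regulatory subunits Pik3r1, Pik3r2 and Pik3r3, Pik3r1 held 82.3% and 80.8% in control, 65.0% and 59.7% at D4, and 68.4% and 68.9% at D7. The summed FPKM of these regulatory subunits was 6.07 and 5.25 times that of the catalytic ones in control. It was 1.90 and 1.87 times at D4, and 3.49 and 2.77 times at D7. The sums were not of matched pairs, since Pik3cg was in the catalytic sum and its regulatory partner Pik3r5 in neither. Mean FPKM of Pik3cg was 3.67 in control, 11.3 at D4 and 9.23 at D7, and that of Pik3r5 was 0.753, 5.86 and 4.54. In each of these shares and in the ratio of sums, the control libraries stood apart from all 4 crushed ones. For comparison, crushed and control groups did not overlap in CPM for 76.2% of all genes at D4 and 71.9% at D7.

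**Figure D4:**
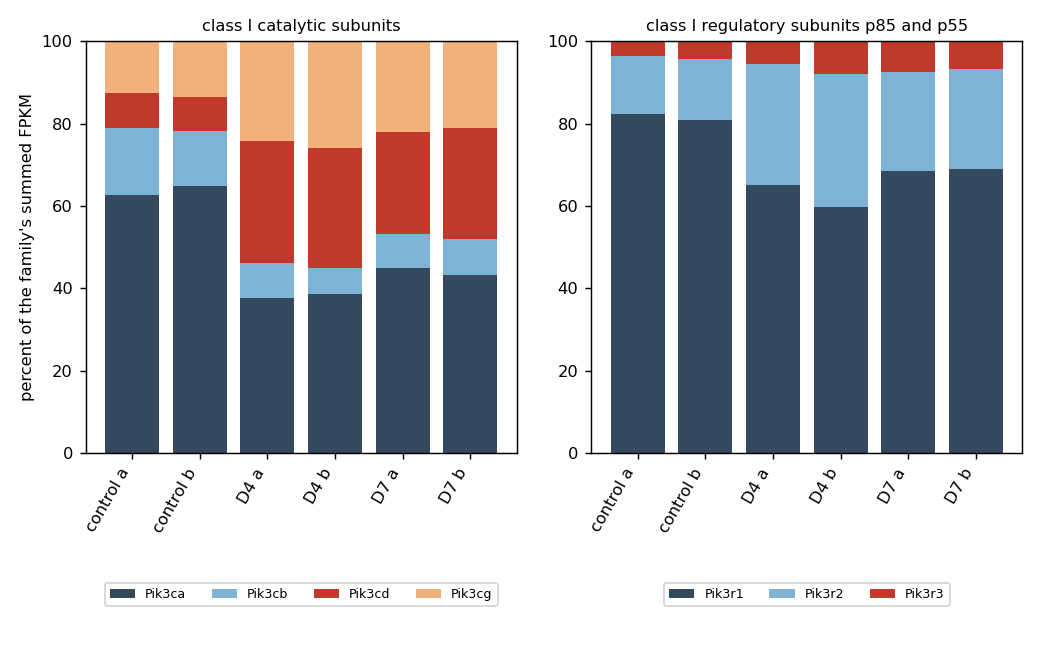
Stacked bars of the share, in percent of summed FPKM, of each gene within the class I catalytic subunits and the regulatory subunits Pik3r1 to Pik3r3, for each of the 6 libraries. The Pik3cd band is wider in all crushed libraries than in control, and the Pik3ca and Pik3r1 bands are narrower.

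Beyond the 8 members, 74 other genes of the pathway were listed by role, of which 72 were in the table and 71 could be tested. Rps6, a ribosomal protein gene that every cell uses, was listed at 0 counts in all 6 libraries, so that the 0 cannot be read as absence of its transcript. At D4, 29 of the 71 passed (11 higher and 18 lower) beside the 44.2% of all genes, with a median log2 fold change of -0.11. At D7, 26 passed (11 higher and 15 lower) beside 37.5%, with a median of -0.01. Under the 2-fold rule 12 were called at D4, 7 higher and 5 lower, and 11 at D7, 6 higher and 5 lower. These were 16.9% and 15.5% of the 71, beside 21.9% and 18.8% of all genes, so that neither share stood above the background. The counts by role below are of few genes each and are to be read against the 44.2% of all genes that passed at D4 (21.6% higher and 22.6% lower) and the 37.5% at D7 (19.5% and 18.1%).

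The other class I subunits had 3 of 7 genes higher and none lower at both times, beside 21.6% of all genes higher at D4 and 19.5% at D7. Pik3r5, a regulatory partner of Pik3cg, was 3.91 and 4.22 CPM in control, 30.2 and 21.7 at D4, and 20.3 and 19.7 at D7 (log2 fold change 2.67 at D4 and 2.30 at D7). Pik3ap1, an adaptor of B cells and myeloid cells, rose by 2.00 at D4 and 1.67 at D7, and Pik3cg by 1.34 and 1.04. These 3 genes, like Pik3cd, are known chiefly from blood-derived cells, and the leukocyte sums given above moved with them. Pik3r6 of the same list, named after its values were seen, did not pass at either time. Its mean was 11.9 CPM in control, 11.6 at D4 and 8.94 at D7. The part of leukocyte number in these levels was not tested. Among the class II and III enzymes, Pik3c2b fell at both times (-1.09 at D4, and -0.57 at D7, where it was under 2-fold), and Pik3c2g passed at D7 (2.20) on counts of only 9 to 65.

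The phosphatases that oppose PI3K or Akt had 2 of 6 genes higher and 3 lower at both times, where 44.2% of all genes passed at D4 and 37.5% at D7. Inpp5d, which encodes SHIP1 of blood cells, was 18.0 and 18.6 CPM in control, 53.7 and 55.2 at D4, and 47.2 and 41.6 at D7 (log2 fold change 1.57 and 1.28). Inpp4b, which removes another phosphate of the lipid, fell by 0.98 at D4 and 1.05 at D7. Pdpk1, the kinase that activates Akt, did not pass at D4 (-0.27, adjusted p = 0.0654) and was lower at D7 (-0.34, adjusted p = 0.0398), a gene named after its values were seen.

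Adaptors and receptors upstream of PI3K had 2 of 8 higher and 3 lower at D4, and 3 higher and 2 lower at D7, where 44.2% and 37.5% of all genes passed. Erbb3, the neuregulin receptor of Schwann cells, was 666 and 552 CPM in control, 1247 and 1420 at D4, and 1757 and 1553 at D7 (log2 fold change 1.13 and 1.44). Gab2, a docking adaptor, rose by 1.32 at D4 and 0.64 at D7. Irs1, a docking protein of the insulin receptor, fell by 1.23 at D4 and 1.44 at D7, and the insulin receptor Insr fell by 0.57 at D4 and 1.01 at D7. The adipocyte markers were also lower in the crushed libraries, and their part in these changes was not tested.

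The other mTOR complex subunits had 1 of 8 higher and 3 lower at D4, and none higher and 2 lower at D7, where 44.2% and 37.5% of all genes passed, as for the 3 groups that follow. Here the related Rictor partners Prr5 and Prr5l differed in direction: Prr5 fell by 1.39 at D4 and 1.47 at D7, whereas Prr5l rose by 1.08 at D4 and was 0.77 higher at D7 (adjusted p = 0.0504). Of 8 tested genes of the TSC, Rheb and stress group, 1 was higher and 3 lower at D4 and 2 lower at D7. Sesn3, a stress-induced inhibitor of the Raptor complex, was 219 and 214 CPM in control, 76.7 and 82.0 at D4, and 123 and 108 at D7 (-1.45 and -0.90). The amino acid branch (Rag, Ragulator and GATOR) had 2 of 13 higher and 1 lower at D4, and 1 of each at D7, with no change of 2-fold. Among the downstream targets, none of 15 was higher and 3 were lower at D4, and 1 was higher and 2 lower at D7. The transcription factor Foxo1, which Akt inactivates, fell by 1.03 at D4 and 1.10 at D7.

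**Figure D5:**
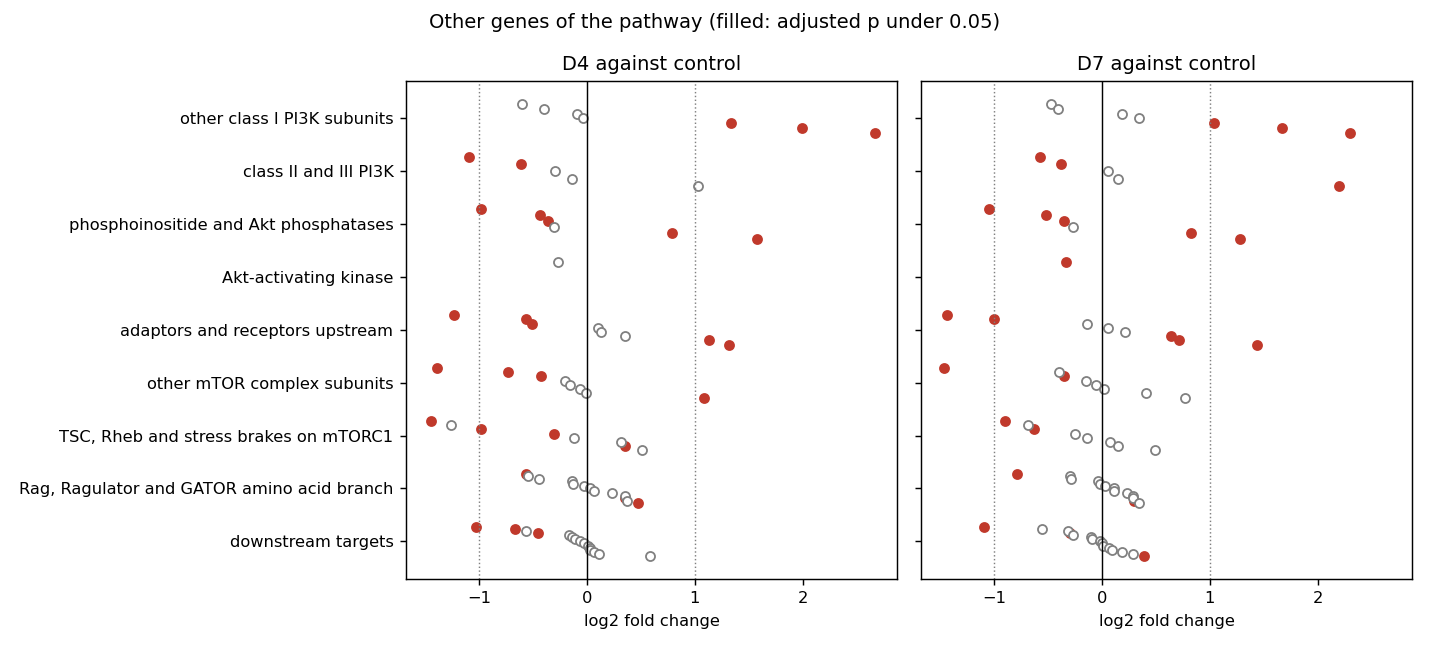
Log2 fold change of the 71 other pathway genes at D4 (left) and D7 (right) against control, 1 point a gene in rows by role, filled where the adjusted p was under 0.05, with dotted lines at a 2-fold change. The amino acid branch lies within the 2-fold lines, as do the downstream targets except Foxo1, while the class I group reaches 2.67 at D4.

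Between D4 and D7, 4.67% of all tested genes passed, and of the 8 members only Pik3r1 did, while none was called DEG (2.18% of all genes). It was 1.71-fold higher at D7 than at D4 (log2 fold change 0.78, SE 0.135, adjusted p = 0.0376). The call was lost without D4 a (0.88, adjusted p = 0.209), D4 b (0.68, adjusted p = 0.247), D7 a (0.67, adjusted p = 0.179) or D7 b (0.86, adjusted p = 0.0508). For the other members the log2 difference of D7 from D4 was 0.30 for Rictor (adjusted p = 0.133), 0.12 for Pik3ca, 0.06 for Akt2, -0.02 for Mtor, -0.03 for Rptor, -0.26 for Pik3cd (adjusted p = 0.229) and -0.29 for Akt1 (adjusted p = 0.113). Of the 71 other genes, 2 passed: Sesn3 was higher at D7 than at D4 (0.55, adjusted p = 0.0421) and Gab2 lower (-0.68, adjusted p = 0.0236). With D4 a, D4 b or D7 a left out, few or none of all tested genes passed in this comparison. The loss of these calls there thus says nothing particular about either gene or about Pik3r1. With D7 b left out, where the Pik3r1 call was lost too, its log2 difference was 0.86, beside 0.78 with all libraries.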

How the data were processed

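RNA of 6 nerves was depleted of ribosomal RNA and sequenced from both ends of each fragment. The authors mapped reads to Rnor_6.0 with HISAT2 2.0.4, assembled transcripts with StringTie 1.3.0 and deposited fragment counts and FPKM values for mRNAs and lncRNAs. The deposited FPKM carried no TMM factor. Whether counting used the strand is not given in the sources used here.

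From the deposited counts, edgeR 4.0.16 (R 4.3.3; filterByExpr, TMM, quasi-likelihood test) was fitted once to all 6 libraries, with Benjamini-Hochberg adjustment over all mRNAs or lncRNAs tested. A DEG had an adjusted p under 0.05 and a 2-fold change. The fit was also run on simulated data. These had far fewer changed genes than the real data and took their spread from it, so that this run does not check the calls given here. Alternatives included DESeq2 1.42.0, limma 3.58.1 on log2(FPKM + 1), other filters and scalings, and leaving out each library. The members and gene lists were chosen with earlier results of these data known. Named were all members, listed pathway genes called DEG at D4 or D7, the 3 genes most correlated with each member, and lncRNAs at member loci that passed or had the most counts. Castor1 and Castor2 were matched by RefSeq synonyms; Ddit4l and Rragb were unmatched. Some genes of the pathway and marker lists are not reported here and were left out of the counts and sums. Of the marker lists, skeletal muscle summed to 0.376 to 78.3 CPM per library.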

Additional observations from a re-analysis of the deposited data

Results flagged for a closer look

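Pik3r1 was flagged because its difference from control was not the same at both times: a test of D7 against D4 gave a log2 fold change of 0.78 (edgeR quasi-likelihood, adjusted p = 0.0376), higher in 2 of 2 D7 libraries. The same test flagged 2 other genes of the pathway, with Sesn3 at 0.55 (adjusted p = 0.0421) higher at D7 and Gab2 at -0.68 (adjusted p = 0.0236) lower.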

How the results depend on the processing

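Members called DEG at D4 numbered 3 in place of 2 without scaling factors and with limma on FPKM at either pseudocount, where Akt1 was added (log2 fold change 1.06, 1.05 and 1.06), and 2 under the other alternatives. At D7 the number was 1, and for D7 against D4 it was 0, under every alternative run. With 1 library left out in turn, members with adjusted p under 0.05 numbered 4 to 6 at D4, 4 at D7 and 0 to 1 for D7 against D4, and the other pathway genes 18 to 29, 16 to 22 and 0 to 2. DESeq2 gave 2 members for D7 against D4, adding Akt1 (-0.33, adjusted p = 0.0163). The lncRNAs at member loci numbered 0 to 2 at D4 with a library left out, 1 when overlap with the gene was required, and, at D7, 2 with at least 10 counts in every library. Each library came from a different rat, and the labels do not say whether a letter shared between groups marks a batch. Correlations of same-letter deviations between groups were 0.01, 0.195 and -0.134, which cannot settle that. A fit with the replicate block gave 1 other pathway gene for D7 against D4 and 1 lncRNA at D7. Without scaling factors the D7 differences of Pik3ca, Rptor and Rictor became 0.076, 0.26 and 0.14. With limma they became 0.072, 0.24 and 0.13 on log2(FPKM + 1), and 0.076, 0.26 and 0.14 with a pseudocount of 0.1.

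Rptor, never past the threshold, took a positive sign at D4 with only 2 groups (0.042), DESeq2 (0.02), RLE factors (0.0093), no scaling (0.28), the 10-count filter (0.025) and limma (0.26 and 0.28). With a library left out it ranged from -0.14 to 0.13 at D4, -0.17 to 0.11 at D7 and -0.056 to 0.0045 for D7 against D4, where Akt2 ranged from -0.028 to 0.13 and Mtor from -0.057 to 0.012. Leaving out a library of a pair assumes that the lone one varies like the others. The causes were not tested. With 2 rats a group, small differences such as those of Mtor stay within wide intervals.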

Other observations

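For each member, the 3 tested genes whose log2 CPM followed it most closely over the 6 libraries were listed. These are descriptions over points that share groups and libraries. Pik3cd was nearest to Gng4, Runx1 and Nfam1 (Pearson r = 0.9997, 0.9994 and 0.9993), Akt1 to Sla, Mob3a and Tbc1d24, Akt2 to Nr3c1, Aldh9a1 and Col4a2, Pik3r1 to Rraga, Lrch3 and Plscr4, Pik3ca to Zfp365, Mmp24 and Dld, Rictor to Kcne2, Ubp1 and Gm884, Mtor to Cr2, Rfng and Golm1, and Rptor to Sdf4, Rps25 and Rbck1. The number of genes with r above 0.99 was 200 for Pik3cd, 99 for Akt1, 63 for Akt2, 58 for Pik3r1, 29 for Pik3ca, 12 for Rictor, 6 for Mtor and 0 for Rptor. Rraga, a Rag GTPase that helps bring mTOR to the lysosome, was the gene nearest to Pik3r1 (r = 0.9981). Among the members themselves, r of log2 CPM was 0.958 between Pik3cd and Akt1 and -0.983 between Pik3ca and Akt1, while Rptor had no r beyond 0.419 in size with any other member.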
